A study of Mus musculus with 6 samples.

Results

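Dense runs of accessible regions are stretches of the genome in which several ATAC-seq regions follow each other closely. They were found in the DMSO list by merging overlapping entries into regions and linking consecutive regions of a chromosome when the gap between them was below 3000 bp. All regions in runs of 4 or more linked regions were taken, which gave 742 of the 42310 DMSO regions, in 173 runs. Each run was then followed in the lists of cells treated with BRM014 for 6 h or 30 h. A region counted as called when a treated region overlapped it by at least 1 bp and as missing otherwise, and a missing region is not the same as closed chromatin.

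The cells were NMuMG, an established epithelial line from normal mouse mammary gland, of wild-type genotype, given the vehicle DMSO or BRM014 for 6 h or 30 h. BRM014 inhibits the ATPase subunits of the SWI/SNF complexes. There were 6 samples, 2 biological replicates for each of the 3 treatments. Both replicates of a treatment are labelled with the same list, and how they were combined is not given in the sources used here. This leaves 1 list per group, no replicate spread and no test between treatments. DMSO was given for 30 h by the name of its list only, so the 6 h list had no vehicle list of its own time. The extraction protocol also speaks of TGFβ, an agent that no treatment label of these samples names.

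In ATAC-seq the Tn5 transposase inserts adapters into DNA that nucleosomes leave free, and reads pile up over promoters, enhancers and other bound elements. SWI/SNF complexes use ATP to slide or evict nucleosomes and are known for keeping enhancers open. Closely spaced accessible elements are known from clustered enhancers, from promoters with flanking enhancers and from gene clusters. Which of these each run is was not determined, because no gene annotation of the build of the lists, mm9, was used here. Runs are therefore named by their mm9 position, and no sequence of them is shown. For the same reason the labelled cell type could not be checked against marker genes.

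A few facts of the lists bear on all that follows. The DMSO list held 42310 regions, the 6 h list 25922 and the 30 h list 38422. The lowest local background of a list, taken as a measure of its depth, was 63.0% of the DMSO value at 6 h and 80.7% at 30 h, and a shallower list can hold fewer regions without any change in the cells. Shares are given with 95% Wilson intervals, and differences with 95% intervals that take the linked run as the unit. All of them cover counting error only.

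Most dense runs were short. Of the 173 runs, 136 held 4 regions, 27 held 5, 7 held 6 and 3 held 7. Runs spanned from 2019 to 15523 bp, with a median of 5991 bp, and a median of 36.2% of the span lay inside called regions. The 569 gaps within runs had a median of 960 bp, and 175 of them were under 500 bp. The limits of the rule were not natural breaks: 7 runs held a gap of 2900 bp or more, the widest being 2999 bp, and 6 of the 640 runs of 3 regions had their next region 3000 to 3099 bp away, the nearest at 3003 bp. Of the 173 runs 54 lay within 1 Mb of another dense run.

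Dense-run regions made up 1.75% of all DMSO regions, and this share differed between chromosomes. It was highest on chromosome 15, with 64 of 2137 regions (2.99%, 2.35 to 3.81%), and on chromosome 11, with 77 of 2935 (2.62%, 2.10 to 3.27%). The lowest shares were on the X chromosome, 8 of 1078 (0.742%, 0.377 to 1.46%), and on chromosome 13, 16 of 2002 (0.799%, 0.493 to 1.29%). Every chromosome in the list had at least 2 runs. These intervals treat regions as independent, although each run adds several at a time.

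In the DMSO list itself dense-run regions were regions of high signal over a high background. The rule chose them from this list, so these values describe them and are not tested. The summit pileup, the number of reads stacked at the highest point, had a median of 217 in dense runs (lowest 53, highest 1194) against 127 in the other 41568 regions. The local background against which the caller judged them had a median of 38.0 (lowest 8.06, highest 198) against 8.94, which is 11.3 times the lowest background of the list in dense runs and 2.66 times in the other regions. This background was not measured apart from neighbouring regions, whose reads may enter it, and their part in it was not tested. Because the fold enrichment divides pileup by background, it was lower in dense runs, with a median of 5.55 against 13.2.

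The placing of dense-run regions among all DMSO regions shows the same split. Of the 742 dense-run regions 550 lay in the decile of highest background and 495 in the decile of lowest fold enrichment. No dense-run region was in the decile of lowest pileup or in that of highest fold enrichment. By -log10 q, which weighs pileup and background together, they were spread more evenly, with 65 in the weakest and 38 in the strongest decile and a median of 78.4 against 91.9. Dense-run regions were also narrow, with a median width of 473 bp against 680 bp, and 69.3% had a single summit against 48.6%. All of these medians and shares changed stepwise from unlinked regions through runs of 2 and 3 to runs of 4 or more.

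**Figure D1:**
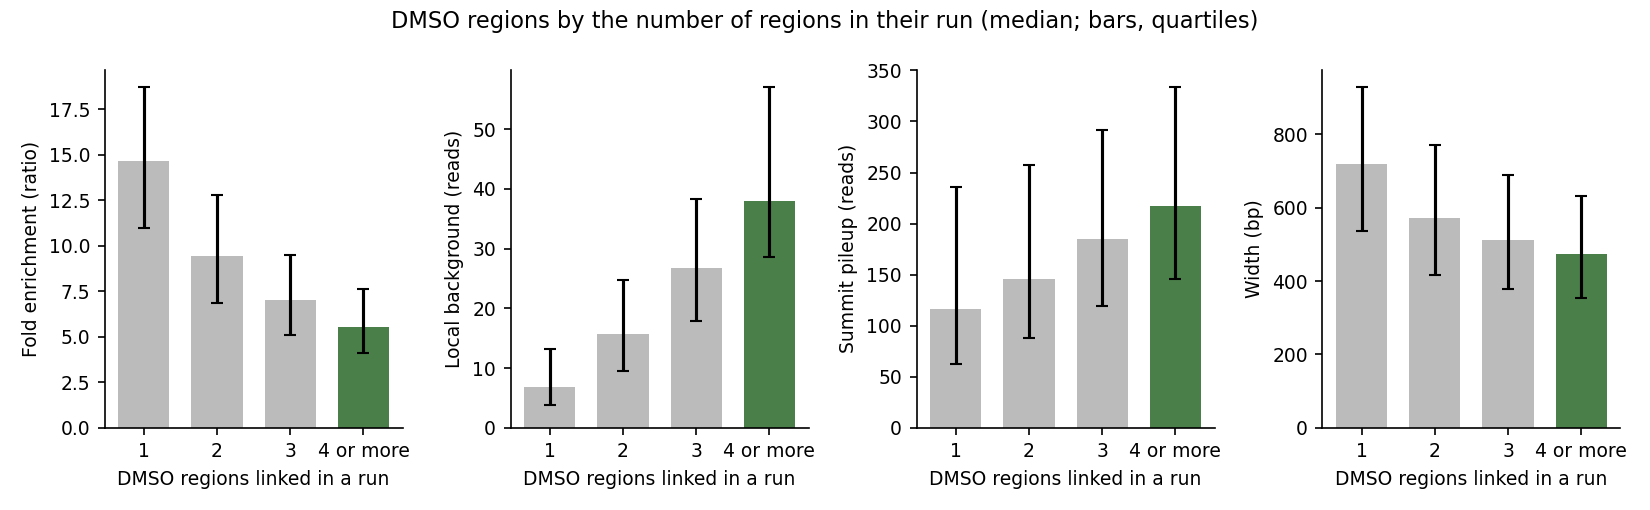
Medians (bars) and quartiles (lines) of fold enrichment, local background in reads, summit pileup in reads and width in bp of DMSO regions, by the number of regions linked in their run. From unlinked regions to runs of 4 or more the median fold enrichment goes from 14.7 to 5.55 and the median background from 6.81 to 38.0, while the median pileup goes from 116 to 217.

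The first question was whether crowded regions were lost more or less often than the rest after 6 h of BRM014. Of the 742 dense-run regions 324 were missing, 43.7% (40.1 to 47.3%), where 43.6% of all DMSO regions were missing. In the other 41568 regions the share was also 43.6%, and the difference was 0.0553 percentage points (-3.74 to 3.85). Without regard to strength, then, the share was near that of the whole list. With only regions whose highest score was 1000 in each list the difference was 4.29 points (0.263 to 8.31). Runs of 4 gave 43.9% and runs of 3, just outside the rule, gave 42.8%.

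After 30 h 176 of the 742 dense-run regions were missing, 23.7% (20.8 to 26.9%), where 26.1% of all DMSO regions were missing. The other regions were at 26.1%, a difference of -2.38 points (-5.58 to 0.807), whose interval includes 0. It excluded 0 with a link distance of 5000 bp, at -2.34 points (-4.22 to -0.454), and with runs of 3 or more regions, at -3.20 points (-4.91 to -1.49). Runs of 4 gave 23.0% and runs of 3 gave 22.8%. Both times were compared with the same DMSO list. The longest runs gave 7 of 21 missing at 6 h and 2 of 21 at 30 h for the 3 runs of 7 regions, numbers too small to set apart from the rest.

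How dense runs compared with regions of equal strength depended on the measure of strength. At equal -log10 q, averaged with equal weights over deciles, dense-run regions were missing somewhat less often: 40.0% against 43.7% at 6 h, a difference of -3.71 points (-6.70 to -0.729), and 21.9% against 26.1% at 30 h, a difference of -4.26 points (-6.75 to -1.77). The interval of this small difference included 0 in runs linked below 1500 bp, which held 220 regions. The difference there was -1.85 points at 6 h (-8.29 to 4.58) and 0.758 points at 30 h (-5.14 to 6.66). These wide intervals also include -3.71 and -4.26 points, and only deciles with at least 20 regions of each kind entered. At 6 h the interval of the difference also included 0 with only regions whose highest score was 1000, at -2.66 points (-6.36 to 1.04). With lists of equal length it did so too, at -1.17 points (-4.60 to 2.27). At equal fold enrichment they were missing far less often, by -36.2 points at 6 h (-40.3 to -32.0) and -28.1 points at 30 h (-31.1 to -25.2). Only 4 of the 10 deciles of fold enrichment held at least 20 regions of each kind, and 717 of the dense-run regions lay in them, 495 of these in the lowest. These values weigh the 4 deciles equally. Weighted to the dense-run regions the differences were -24.3 points at 6 h (-28.2 to -20.5) and -20.3 points at 30 h (-23.8 to -16.7). At equal -log10 q the same weights gave -3.98 and -4.65 points. Under the 1 bp rule a treated region that spans close neighbours marks each of them as called. The 418 called dense-run regions met 406 treated regions at 6 h, and the 566 called at 30 h met 557. Of them 3 at 6 h and 6 at 30 h met 2 or more. The part of such sharing in these differences was not tested.

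At equal summit pileup the direction turned. Weighted to the 701 dense-run regions in bins with at least 20 regions of each kind, 45.2% of dense-run regions were missing at 6 h against 23.5% of other regions, a difference of 21.7 points (18.3 to 25.1). At 30 h the shares were 24.5% and 10.6%, a difference of 13.9 points (10.9 to 16.9). Among well covered regions the share missing rose with run size. With a summit pileup of at least 256 in DMSO, 51 of 287 dense-run regions were missing at 6 h, 17.8% (13.8 to 22.6%), against 536 of 9729 other regions, 5.51% (5.07 to 5.98%). At 30 h these were 20 of 287, 6.97% (4.56 to 10.5%), and 146 of 9729, 1.50% (1.28 to 1.76%). At 6 h the share was 4.22% in unlinked regions, 7.60% in runs of 2 and 12.4% (9.99 to 15.2%) in runs of 3. At 30 h it was 1.09%, 2.06% and 4.07% (2.77 to 5.93%). The intervals of runs of 3 overlapped those of dense runs at both times. The median background of the well covered regions was 55.6 in dense runs and 22.0 in all others, and their median -log10 q was 183 and 306. The part of the background in these differences was not tested.

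**Figure D2:**
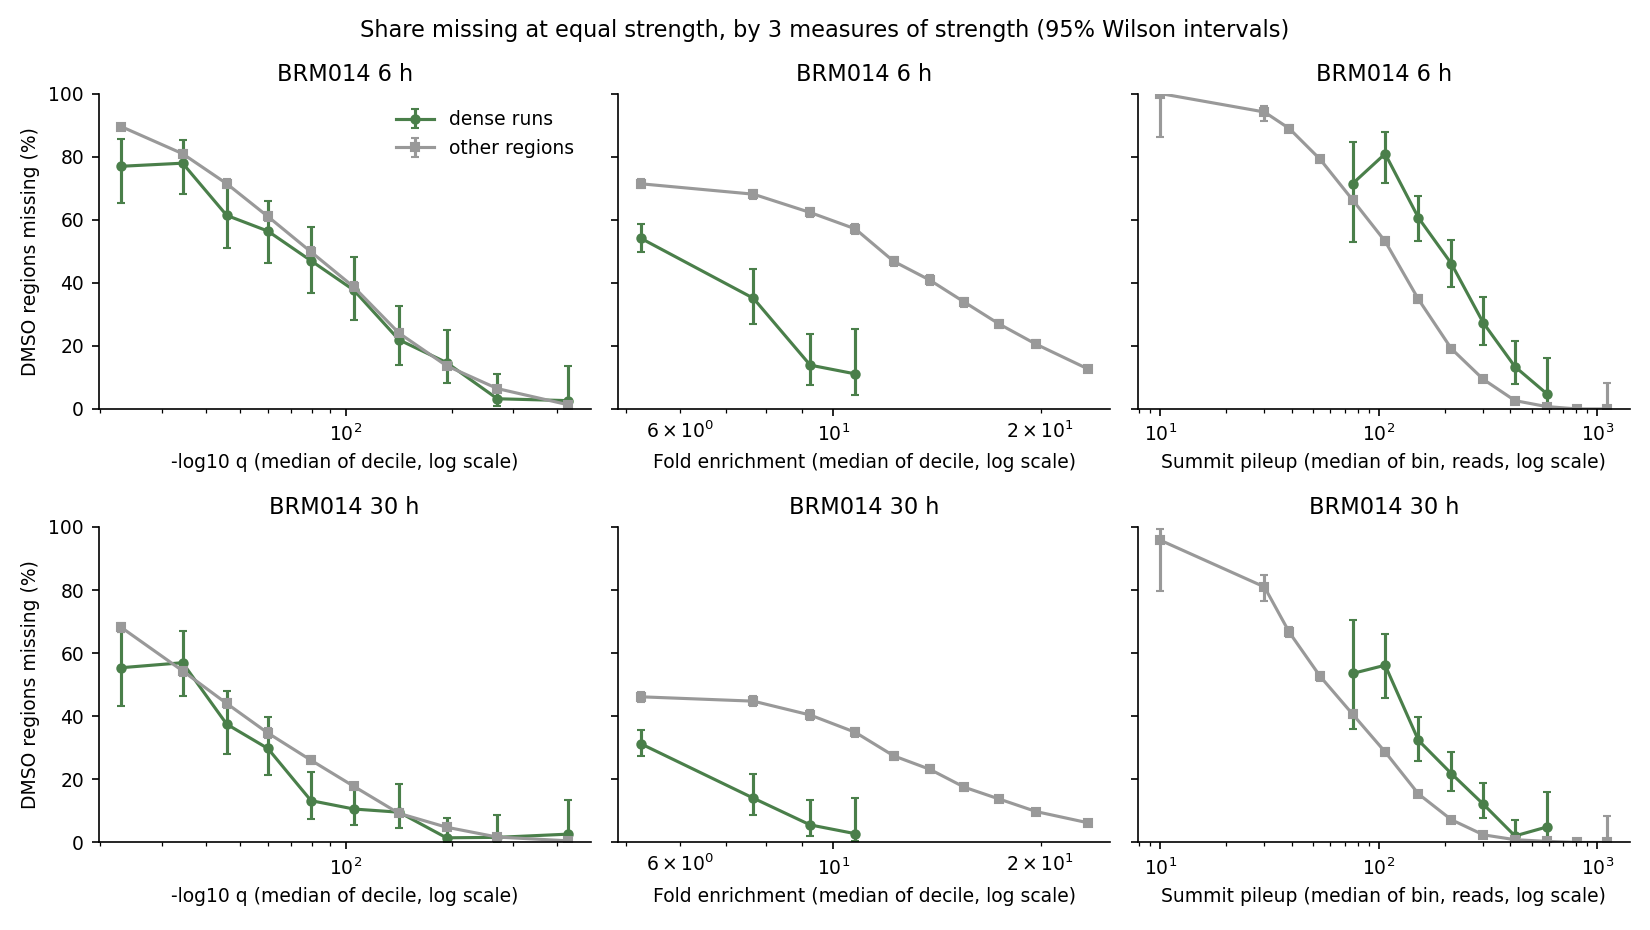
Percent of DMSO regions missing at 6 h (top) and 30 h (bottom) against -log10 q, fold enrichment and summit pileup in the DMSO list (log scales), for dense-run regions (green) and other regions (grey), with 95% Wilson intervals and groups of at least 20 regions. Dense runs lie close to the others by -log10 q, below them by fold enrichment and above them by pileup, as in the differences of -3.98, -24.3 and 21.7 points at 6 h, weighted to dense-run regions. The pileup bins shown are wider than those used for the difference of 21.7 points.

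At similar local background dense-run regions were missing more often than the others at backgrounds from 10 to 80, and their summits were lower. Between backgrounds of 10 and 20, 66.2% of 65 dense-run regions were missing at 6 h against 25.2% of 10803 others, and 41.5% against 12.3% at 30 h, with median pileups of 109 and 216. Between 20 and 40 the shares were 46.3% of 339 and 20.3% of 6828 at 6 h, and 23.9% and 10.1% at 30 h, with median pileups of 172 and 336. Between 40 and 80 they were 39.2% of 263 and 19.0% of 1386 at 6 h, and 22.1% and 9.02% at 30 h, with median pileups of 286 and 463. The Wilson intervals of the 2 kinds did not overlap in any of these 3 ranges at either time. Above 80, with few regions of either kind, the shares were 22.9% of 70 and 23.2% of 69 at 6 h, and 11.4% and 13.0% at 30 h, with median pileups of 474 and 547.

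Within a run the weaker regions were missing most, along a gradient close to that of the whole list. In the 136 runs of 4, regions were ranked by their DMSO -log10 q. Of the strongest regions of these runs 14.7% were missing at 6 h (9.73 to 21.6%), of the next 36.0% (28.4 to 44.4%), of the third in rank 52.9% (44.6 to 61.1%) and of the weakest 72.1% (64.0 to 78.9%). At 30 h the shares were 2.94% (1.15 to 7.32%), 12.5% (7.95 to 19.1%), 26.5% (19.8 to 34.5%) and 50.0% (41.7 to 58.3%). The median -log10 q of these ranks was 215, 106, 63.5 and 37.3, while their median background was nearly equal, from 35.7 to 36.1. The intervals of neighbouring ranks did not overlap at either time. Among other regions in the same -log10 q deciles the shares missing at 6 h were 17.6%, 38.1%, 57.7% and 76.1%, each inside the interval of its rank. At 30 h they were 7.62%, 19.5%, 34.2% and 51.2%, of which the first and second lay just above the interval of their rank.

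Place in the run showed smaller differences than rank. Regions at the ends of runs were missing in 45.1% of cases at 6 h (39.9 to 50.4%) and regions inside in 42.4% (37.7 to 47.3%), and at 30 h in 25.4% (21.1 to 30.3%) and 22.2% (18.4 to 26.6%). Regions less than 500 bp from their nearest neighbour were missing in 41.2% of cases at 6 h (35.8 to 46.7%) and in 21.5% at 30 h (17.3 to 26.4%). Those at least 1500 bp from it were missing in 46.3% (39.4 to 53.4%) and 26.3% (20.6 to 33.0%), so the intervals overlap at each time. Other regions in the same -log10 q deciles lay above the intervals for distances under 500 bp (48.1% and 28.8%) and inside regions (47.8% and 28.3%). They lay within them for ends (47.4% and 28.4%) and distances of at least 1500 bp (47.9% and 28.7%). The part of treated regions shared by close neighbours was not tested.

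Runs thinned out more often than they vanished. At 6 h 15 of the 173 runs had every region called and 9 had none, and most runs had lost 1 (54 runs) or 2 (58 runs) of their regions. At 30 h 58 runs had every region called and 1 had none, with 1 region missing in 66 runs and 2 in 38. A run kept on average 2.42 called regions at 6 h and 3.27 at 30 h. The variance of the share missing over runs was 1.11 times that of independent regions at 6 h and 1.07 times at 30 h, with no allowance for the spread of strength within a run.

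Few runs still met the rule that defined them, and in a run of 4 a single missing region is usually enough to end it. Of all DMSO regions 43.6% were missing at 6 h and 26.1% at 30 h. How many runs would be kept or vanish at these shares was not tested. The treated regions on a run still formed a chain of at least 4 linked regions in 17 runs at 6 h, 9.83% (6.23 to 15.2%), and in 60 runs at 30 h, 34.7% (28.0 to 42.0%). At least 2 linked regions remained in 122 runs at 6 h and in 163 at 30 h. By length, 55.2% of the bases of dense-run regions were covered by treated regions at 6 h and 71.6% at 30 h, against 53.9% and 69.2% in the other regions. Treated regions that met no DMSO region numbered 1923 at 6 h and 6894 at 30 h. Of these 7 at 6 h and 17 at 30 h lay inside a span of a run, in 7 and 14 runs. Whether this is more or less than the length of the gaps would give was not tested. The strongest DMSO region of a run was also the strongest by -log10 q in the treated list in 112 of 164 runs with a call at 6 h, 68.3% (60.8 to 74.9%), and in 112 of 172 at 30 h, 65.1% (57.7 to 71.8%).

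**Figure D3:**
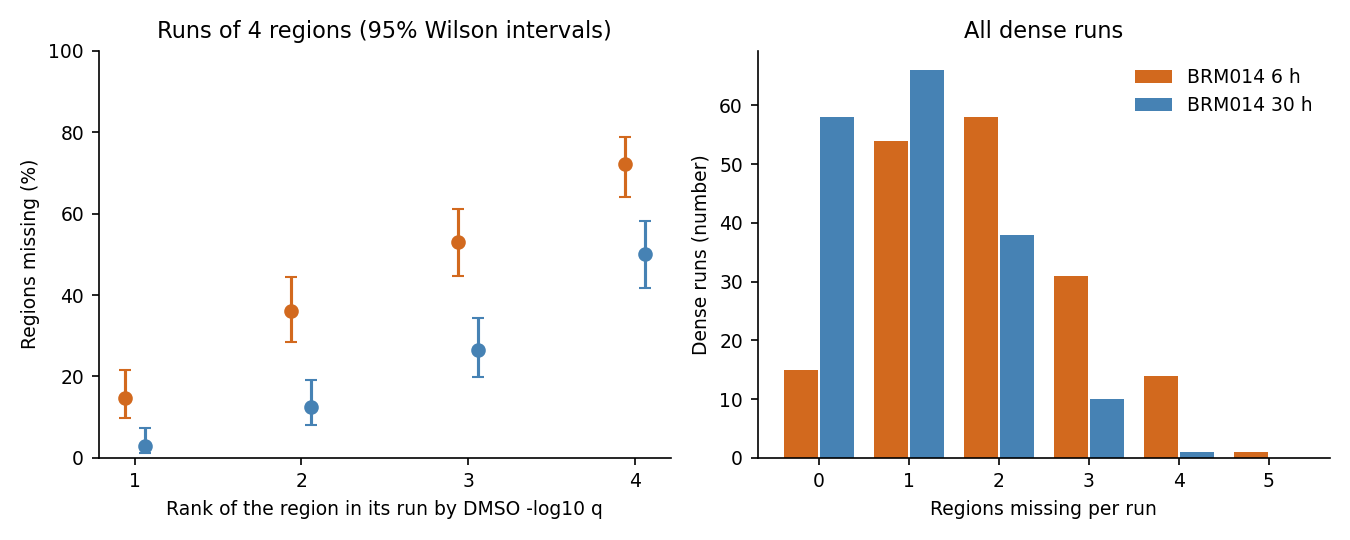
Left, percent of regions missing by rank within runs of 4 regions, with 95% Wilson intervals; right, number of dense runs by how many of their regions were missing, at 6 h (orange) and 30 h (blue). The share missing rises from 14.7% to 72.1% over the ranks at 6 h and from 2.94% to 50.0% at 30 h, and 15 runs at 6 h and 58 at 30 h lost no region.

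The longest runs show these patterns at single places. The first, by summed width among the 3 runs of 7 regions, lay on chromosome 2 from 173081732 to 173092473. Its strongest region, from 173089058 to 173089789, had a DMSO pileup of 966, an 8.07-fold enrichment and a -log10 q of 510, and it was called at both times. Its -log10 q was 217 at 6 h and 321 at 30 h, values that also move with depth. The regions from 173081732 to 173081977 and from 173090166 to 173090620, with DMSO -log10 q of 21.2 and 35.9, were missing at both times. The second of these had a pileup of 280, but over a background of 115 its fold enrichment was only 2.42. The region from 173084092 to 173084407, with a -log10 q of 58.7, was missing at 6 h and called at 30 h. The other 3 regions of the run were called at both times.

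The other long runs had most of their regions called at 30 h. On chromosome 4 from 140828733 to 140837802, 5 of 7 regions were called at 6 h and 7 at 30 h, and on chromosome 2 from 179950615 to 179963693 likewise 5 and 7 of 7. Among runs of 6 regions, chromosome 7 from 29157312 to 29168457 kept 5 and 6, and chromosome 15 from 76020132 to 76030453 kept 5 at 6 h and 4 at 30 h. Fewer were called on chromosome 12 from 101511244 to 101520855, with 2 and 4 of 6. The runs of 6 on chromosome 2 from 6241244 to 6256766 and on chromosome 14 from 26276130 to 26287409 had 3 and 4 called, and that on chromosome 1 from 159003637 to 159012014 had 3 and 5. The 10th of these runs, on chromosome 5 from 125885258 to 125890025, had all 6 regions called at both times.

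The run with the most regions missing at both times was faint. It lay on chromosome 2 from 125614082 to 125618929, had no region called at either time, and was the only dense run with no call at 30 h. Its regions had DMSO pileups of 96, 95, 121 and 126 over backgrounds from 15.3 to 15.5, and -log10 q of 40.8, 40.4, 62.6 and 67.0. All 4 lay below the median -log10 q of all DMSO regions, 91.7. Next in this order, the run at chromosome 8 from 129185240 to 129190958 had 0 of 4 regions called at 6 h and 1 at 30 h, and the run at chromosome 5 from 117807189 to 117816220 had 1 and 2 of 5. Chromosome 3 from 37622018 to 37628601 had 0 and 2 of 5, and chromosome 18 from 64342271 to 64349140 had 1 of 4 at each time.

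The run on chromosome 5 from 117807189 to 117816220 also had the largest share missing at 30 h among runs of at least 5 regions, by the order of summed width among several at 60.0%. It held 2 strong regions with nearly the same DMSO values. From 117813053 to 117813776 the -log10 q was 220, and this region was called at both times, with 159 at 6 h and 144 at 30 h. From 117810578 to 117811136 it was 213, and this region was missing at 6 h and had a -log10 q of 45.0 at 30 h. The pair lies under 2 kb apart, so regions of equal DMSO strength in the same run did not share their outcome here. The others at 60.0%, each with 2 of 5 regions called at 30 h, were the chromosome 3 run named above, a run at chromosome 2 from 119372701 to 119378509, a run at chromosome 15 from 77646250 to 77652967, and a further run at chromosome 3 from 138401914 to 138408918.

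Among runs in which every region was called at both times, the longest was the run of 6 on chromosome 5 from 125885258 to 125890025. Its regions were modest in DMSO, with -log10 q from 27.2 to 114 and pileups from 110 to 230, and 4 of the 6 lay below 60. Treated regions joined neighbours here, so the 6 DMSO regions met 5 regions in each treated list. The region from 125889130 to 125889605 had a pileup of 163 in DMSO, 301 at 6 h and 169 at 30 h, although the treated lists were shallower. Next came a run of 5 at chromosome 19 from 5809670 to 5818470, which had the highest pileup of any dense run (1194) and a median background of 172, and a run of 5 at chromosome 10 from 127527848 to 127534148. The last were runs of 4 on chromosome 1 from 88330646 to 88339602 and on chromosome 19 from 5487835 to 5491739, the latter with 70.3% of its span inside regions.

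**Figure D4:**
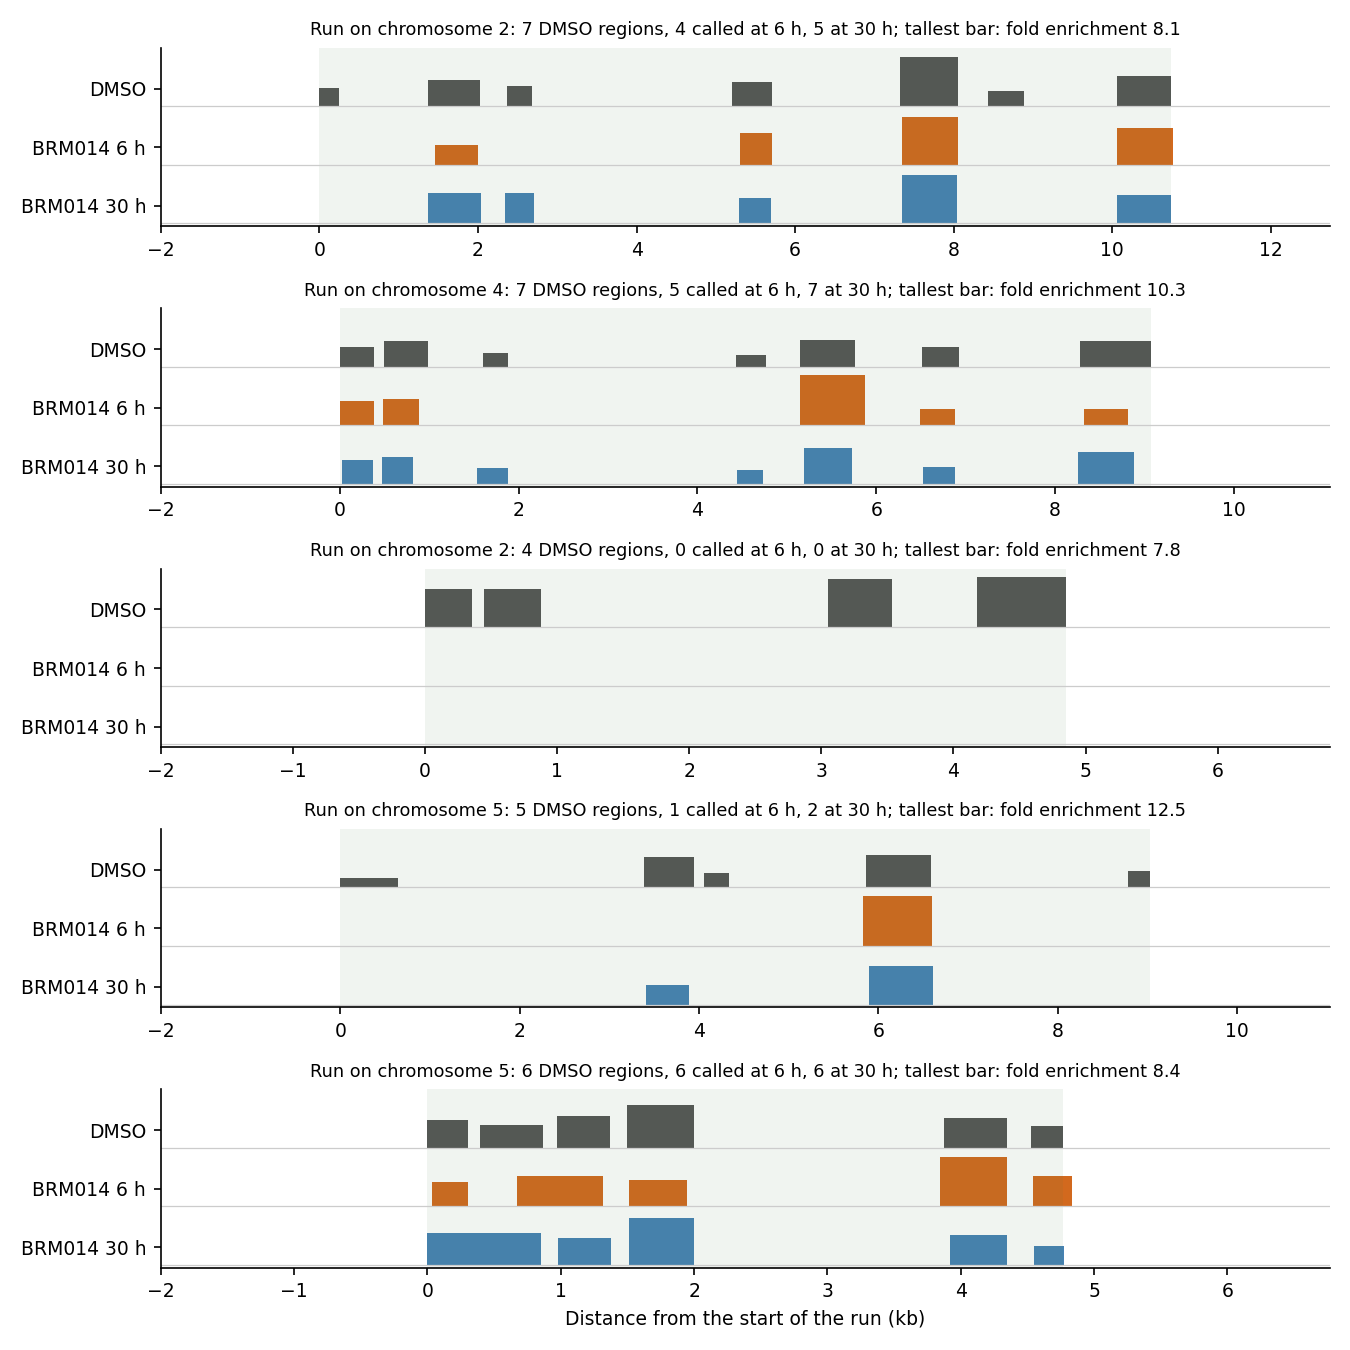
Regions of 5 named runs in the DMSO, 6 h and 30 h lists, by distance from the start of the run in kb; the shaded part is the run, and bar height is the fold enrichment of the region, scaled to the tallest in that run. The top runs keep 4 or 5 of 7 regions at 6 h and 5 or 7 at 30 h, the run on chromosome 2 in the middle keeps none, and that on chromosome 5 at the bottom keeps all 6.

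The lists also allowed a comparison of signal in regions that were still called. Pileup and background of each list were divided by the lowest background of that list, which assumes that this value scales with depth. Reads of neighbouring regions may enter the local background, so its ratio is not a measure apart from them. In the 418 dense-run regions called at 6 h the depth-scaled local background had a median of 0.705 times that in DMSO (quartiles 0.571 and 0.878), and it was lower than in DMSO in 86.1% of them. In the 23440 other regions called at 6 h the median was 0.847. In runs of 3, just outside the rule, the median was 0.698, and 86.6% of regions were lower than in DMSO. At 30 h the medians were 0.885 in 566 dense-run regions (quartiles 0.722 and 1.02) and 0.983 in 30717 others. In runs of 3 the median at 30 h was 0.873, so the lower background was not particular to dense runs. Over all called regions the summit pileup moved less apart, with medians of 0.848 in dense runs and 0.855 in other regions at 6 h, and 0.958 and 0.985 at 30 h. This was not so among called regions with a DMSO pileup of at least 256. There the pileup medians were 0.640 and 0.760 at 6 h, and 0.849 and 0.917 at 30 h, and the background medians at 6 h were 0.663 and 0.763. A region takes the highest pileup of the treated regions it meets, also where a neighbour shares them.

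The difference in background between dense runs and other regions at 6 h was not seen at equal DMSO background, and at 30 h it turned. The mean log2 ratio at 6 h was -0.49 in dense runs and -0.34 in the others, a difference of -0.15 (-0.24 to -0.07). At equal DMSO background it was -0.51 and -0.54, a difference of 0.03 (-0.05 to 0.11), over bins that held 361 of the 418 dense-run regions. At 30 h the means were -0.22 and -0.13, a difference of -0.09 (-0.15 to -0.03). At equal DMSO background they were -0.23 and -0.30, a difference of 0.07 (0.02 to 0.12), so the ratio was slightly higher in dense runs than in the others. The bins used at 30 h held 520 of the 566 dense-run regions. Regions that were no longer called have no background in the treated list and do not enter.

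Runs differed widely in this measure. Over the 138 runs with at least 2 called regions at 6 h the median ratio of a run was 0.707 (quartiles 0.564 and 0.877), and it was above 1 in 18 of them. At 30 h it was 0.877 over 167 runs (quartiles 0.717 and 0.996), and above 1 in 40. The runs at the ends of the range were chosen after their values were seen. At 6 h the highest were chromosome 11 from 68849462 to 68854900, at 2.36, the run of 6 on chromosome 5 described above, at 1.78, and chromosome 19 from 12084001 to 12087072, at 1.77. The first and the last of these were also the 2 highest at 30 h, at 1.43 and 1.52. The lowest at 6 h was on chromosome 5 from 89705998 to 89709760, at 0.281, and at 30 h on chromosome 11 from 100148276 to 100153037, at 0.271.

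**Figure D5:**
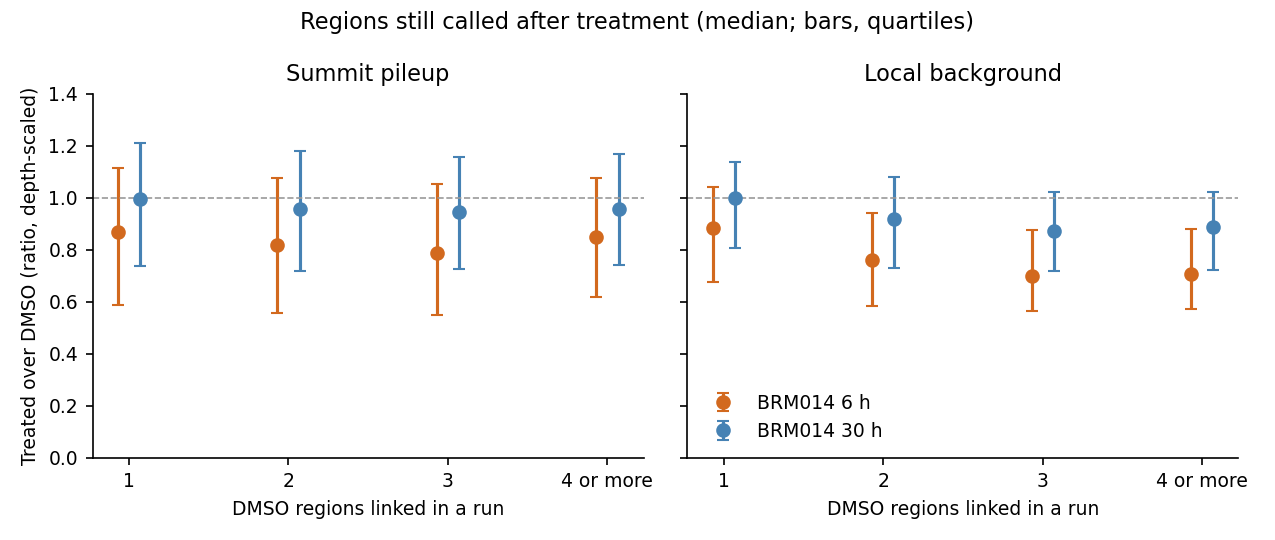
Treated over DMSO ratio of summit pileup (left) and local background (right) in regions still called, each scaled to the lowest background of its list, by the number of DMSO regions linked in a run; points are medians and lines quartiles, at 6 h (orange) and 30 h (blue). The background ratio at 6 h goes from 0.882 in unlinked regions to 0.698 in runs of 3 and 0.705 in runs of 4 or more. The pileup ratio at 6 h stays between 0.786 and 0.869.

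The same rule was applied to the treated lists, so that runs were not chosen from DMSO alone. The 6 h list held 143 regions in 34 dense runs, 0.552% of its regions, and the 30 h list 580 regions in 134 runs, 1.51%, against 1.75% in DMSO. Dense runs of the 6 h list met DMSO dense runs in 19 of 34 cases, and those of the 30 h list in 67 of 134. Of the regions in 6 h runs 14 of 143 overlapped no DMSO region, 9.79% (5.92 to 15.8%), where 7.42% of all 6 h regions did so. In 30 h runs these were 88 of 580, 15.2% (12.5 to 18.3%), where 17.9% of all 30 h regions did so. Both shares are near those of their whole list. Dense runs of the treated lists also had low fold enrichment, with medians of 5.87 at 6 h and 5.71 at 30 h, against 13.1 and 12.7 in the other regions of these lists.

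Runs built from the 30 h list were not chosen from the 6 h or the DMSO list, but the regions compared had to be called in both. Of the 580 regions of these runs 280 also lay on DMSO dense-run regions. In the 358 regions of these runs called in all 3 lists the median depth-scaled background at 6 h was 0.696 times that in DMSO, against 0.844 in 22650 other regions. At equal DMSO background the difference in mean log2 ratio was 0.05 (-0.04 to 0.14), over bins that held 293 of the 358 regions. In runs built from the 6 h list the 30 h background was 0.983 times that in DMSO, in 123 regions, against 0.985 in 22866 others. The difference in mean log2 ratio was 0.02 (-0.13 to 0.16), so the lower background at 30 h in runs built from DMSO was not seen in runs built from the 6 h list, whose interval is wide.

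New regions joined some 30 h runs. In the run at chromosome 6 from 31025658 to 31032953, which had the most, 3 of 6 regions overlapped no DMSO region and 3 of the 6 were called at 6 h. There were 2 new regions among 5 in each of 3 runs, at chromosome 4 from 141124927 to 141131597, at chromosome 1 from 182870972 to 182876124 and at chromosome 15 from 83276413 to 83284671. The run at chromosome 13 from 21259824 to 21265239 had 2 among 4. In all 5 runs at least 2 regions were already present in DMSO, and the highest -log10 q of a run lay between 61.4 and 103.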

How the data were processed

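ATAC-seq peak lists of NMuMG cells were used, 1 for each group of 2 replicates. They were called with MACS2 2.1.2 on mm9, per the submitters' processing notes. Aligner, read filters and caller options are not given in the sources used here. The authors deposited for each entry a score (540 to 1000), a fold enrichment (a ratio) at the summit, a -log10 p, a -log10 q and a summit position.

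Overlapping entries were merged, keeping the highest of each value, except that the background was that of the entry with the highest pileup. The pileup, as a whole number of reads, and the background of each entry were solved from its deposited ratio and -log10 p, assuming the default formulas of MACS2, and gave back -log10 p within 0.001 for 100% of entries. Read totals were not analysed here. Strength was matched in deciles of -log10 q, or in bins of pileup with 4 bins per doubling, using bins with at least 20 regions of each kind. Merging, linking, overlap, pileup recovery and intervals were tested on simulated data. Python 3.11.15 was used with numpy 2.4.6, pandas 2.3.3 and scipy 1.17.1.

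The members, lists and comparisons were chosen with earlier results of these data known. Runs were named by a rule. It took the 10 with the most regions, the 5 that lost most regions at both times, among runs of at least 5 regions the 5 that lost the largest share at 30 h, the 5 longest with every region called, and the 5 runs of the 30 h list with the most new regions. Ties went to the larger summed width. Alternatives changed the link distance, the run size, the overlap, the score, the list length and the measure of strength.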

Additional observations from a re-analysis of the deposited data

How the results depend on the processing

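Of 8 results under the alternatives, 41 values stayed within the interval of the reported value, 20 moved beyond it and 3 changed direction. A change of direction was counted only where the reported interval excluded 0. Differences from other regions without matching could change sign and be counted among the rest. Examples were -1.26 points at 6 h with a link distance of 5000 bp and 0.303 points at 30 h with 1500 bp. Values below are for 6 h and then 30 h. Beside fold enrichment (-36.2 and -28.1 points, or -24.3 and -20.3 weighted to dense-run regions, an alternative chosen after seeing the data) and summit pileup (21.7 and 13.9 points), the difference at equal -log10 q turned with a link distance of 1500 bp, to 0.758 points at 30 h, and its interval at 6 h included 0 with that distance (-1.85), with a score of 1000 (-2.66) and with lists of equal length (-1.17). With runs of 6 or more regions the shares missing were 34.9% and 17.5%, the differences from other regions -8.70 and -8.61 points, and 0% of runs kept a chain of 6 at 6 h; no value at equal -log10 q could be had from these 63 regions. With runs of 3 or more, 20.3% and 48.0% kept a chain of 3. With a score of 1000 in every list the shares missing were 55.9% and 30.2%, the difference from other regions at 6 h 4.29 points, and the shares of runs kept 1.16% and 8.67%; this removes treated regions as well. With lists of equal length, which drop the weakest regions of the longer lists, they were 25.4% and 19.0%, with 1.73% and 4.05% of runs kept. Matching on the -log10 p expected at the depth of the treated list and weighting the deciles of -log10 q to dense-run regions, both chosen after seeing the data, moved nothing beyond its interval. For the link distance and the measures of strength the cause was not tested. No paired analysis was possible because the replicates of a treatment share 1 list, and for this reason no replicate could be left out in turn. Depth limits all of this most at 6 h.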
